A study of Mus musculus with 48 samples.

Results

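The 9 genes described here encode regulators of intermediate mesoderm and of the mesonephros, the embryonic kidney that lies beside the gonad. They are Osr1, Pax2, Pax8, Lhx1, Gata3, Tcf21, Sall1, Eya1 and Foxc1, and they were taken by their symbols. All 9 were found among the 22173 genes of the stage counts and, by Ensembl identifier, among the 32285 genes of the 10x single-cell table, and 7 of them among the 13682 genes of the FPKM table, in which Lhx1 and Tcf21 are not listed. In GRCm38 (GENCODE), the protein-coding genes lie as follows, Osr1 at chr12:9570116-9581500 (plus strand), Pax2 at chr19:44756045-44837871 (plus strand), Pax8 at chr2:24420560-24475599 (minus strand), Lhx1 at chr11:84518284-84525535 (minus strand), Gata3 at chr2:9857078-9890034 (minus strand), Tcf21 at chr10:22817281-22820174 (minus strand), Sall1 at chr8:89027235-89044162 (minus strand), Eya1 at chr1:14168954-14310235 (minus strand) and Foxc1 at chr13:31806633-31812476 (plus strand).

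The study asked which culture conditions turn mouse embryonic stem cells (ESCs) into cells like the somatic cells that surround germ cells in the fetal ovary. All samples used here came from the C57BL/6 strain. Gonadal somatic cells (GSCs) were taken from female gonads at the embryonic days E12.5, E13.5 and E16.5 and from ovaries 6 weeks after birth (P6w), with 2 bulk RNA-seq libraries per stage. The E12.5 GSCs were the cells left after magnetic removal of SSEA1-positive germ cells. A sort is described in the sources for that stage, and also for E13.5 gonads prepared for single-cell sequencing. ESCs withdrawn from the 2i and LIF medium that keeps them pluripotent were plated on fibronectin and left without added compounds (Con), or given vitamin C (Vc), AM580, an agonist of retinoic acid receptors, or both together (V580), for 24 h or 48 h, with 2 libraries per group. V580 cultures were also sampled on days 4, 6, 8 and 10 (V580_D4 to V580_D10), beside E12.5 gonadal cells (E12.5_GC), with 3 libraries per group. A single 10x sample of day 6 of V580 gave counts of unique molecular identifiers (UMIs) per cell. Of the 48 samples of the series, those of primordial germ cells were not analysed here. Nothing in the labels says that the libraries of a group came from separate animals or cultures, so p values measure the spread between libraries, which may be technical.

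The vertebrate kidney forms from intermediate mesoderm, a strip between the somites and the lateral plate, and the gonad arises on the surface of the mesonephros from coelomic epithelium next to it. Osr1 marks this mesoderm early, Pax2, Pax8 and Lhx1 set up the nephric duct and tubules, and Gata3 acts with them in the duct. Sall1 and Eya1 act in the mesenchyme that condenses into nephrons, and Tcf21 and Foxc1 in mesenchyme and stroma. Several of these genes also act outside the kidney, Gata3 in trophoblast, Lhx1, Pax2 and Pax8 in neurons, Sall1 in pluripotent cells and Tcf21 in the interstitium of the gonad.

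AM580 acts on a nuclear receptor, and 3 members, Gata3, Sall1 and Foxc1, were abundant enough to be tested in the treated cultures, so the 250 bases before the RefSeq transcription start of each are shown (GRCm38.p6, 5′ to 3′ on the gene's strand). Capitals mark CG dinucleotides. The Gata3 stretch lies at chr2:9878601-9878850 on the minus strand, inside the span of the longer GENCODE gene, which runs from 9857078 to 9890034. The Sall1 stretch lies at chr8:89044163-89044412 on the minus strand and belongs to the first of 3 RefSeq starts, and the Foxc1 stretch at chr13:31806396-31806645 on the plus strand.
Gata3: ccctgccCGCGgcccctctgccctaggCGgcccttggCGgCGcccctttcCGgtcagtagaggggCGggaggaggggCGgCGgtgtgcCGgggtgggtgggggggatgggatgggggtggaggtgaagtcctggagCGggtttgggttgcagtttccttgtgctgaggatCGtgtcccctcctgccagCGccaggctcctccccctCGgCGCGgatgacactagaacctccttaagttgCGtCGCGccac
Sall1: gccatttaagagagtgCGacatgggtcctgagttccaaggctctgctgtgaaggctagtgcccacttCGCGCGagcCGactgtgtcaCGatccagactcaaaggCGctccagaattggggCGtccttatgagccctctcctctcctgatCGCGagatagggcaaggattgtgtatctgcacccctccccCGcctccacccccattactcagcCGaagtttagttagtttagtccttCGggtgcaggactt
Foxc1: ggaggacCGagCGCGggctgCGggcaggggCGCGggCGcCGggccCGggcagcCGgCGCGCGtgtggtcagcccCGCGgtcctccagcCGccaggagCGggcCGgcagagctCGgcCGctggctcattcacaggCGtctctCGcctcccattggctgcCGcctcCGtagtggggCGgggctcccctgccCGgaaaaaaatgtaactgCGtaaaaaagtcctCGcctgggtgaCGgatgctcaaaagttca
These stretches hold 19, 13 and 29 CG dinucleotides. The RefSeq windows, which run from 250 bases before to 50 after the start, were supplied for 7 of the 9 members and not for Osr1 or Eya1. The hexamer AGGTCA, a core motif of nuclear receptors, searched on both strands, was found in 0 of the 11 windows of these 7 members, and in 16.3% of all 32851 windows. A direct repeat of that hexamer with 5 bases between the copies, which contains it at both ends, was found in 0 of the members' windows and in 3 windows in all. No match says only that these letters are not in these windows.

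In the stage counts, the libraries held 19518037 and 18060579 counts at E12.5, 22259044 and 19753208 counts at E13.5, 21063754 and 15835114 counts at E16.5 and 12799313 and 12694769 counts at P6w. Read against the labels, the 7 granulosa markers of the list used here were all counted in all 8 libraries, with Amhr2, the anti-Müllerian hormone receptor, the most abundant at 562 to 1151 CPM (counts scaled to a common library total). Both E12.5 libraries, labelled female, held 97 and 103 counts of the Y-linked Ddx3y, against 0 to 4 in the 6 other libraries. Each comparison with E12.5 rests on these libraries, and those between the later stages do not. Red cell genes (7 measured) summed to 12557 and 13763 CPM at E12.5, 29946 and 32655 CPM at E13.5, 10601 and 15038 CPM at E16.5 and 264 and 294 CPM at P6w. The 6 germ cell genes, with Dazl the most abundant on the mean over all 8 libraries, summed to 7.56 and 7.69 CPM at E12.5, 28.7 and 29.7 CPM at E13.5, 127 and 164 CPM at E16.5 and 6.94 and 7.82 CPM at P6w. Library names carry a code, L5 for E12.5, E13.5 and the first E16.5 library and L1 for the second E16.5 library and P6w, so that code and stage cannot be told apart between P6w and E12.5 or E13.5. In bulk libraries, fewer cells of a type and less RNA per cell cannot be told apart.

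Between E12.5 and E13.5, 1 of the 8 members tested passed the test. That member was Foxc1, a forkhead factor of paraxial and nephric mesenchyme, which had 1.68 and 2.45 CPM at E12.5 and 0.305 and 0.114 CPM at E13.5. It fell by 3.24 on the log2 scale (SE 0.71, adjusted p = 0.00169, edgeR quasi-likelihood test with Benjamini-Hochberg adjustment over 16398 genes), and its libraries did not overlap between the stages. In this comparison 45.9% of all genes tested were called at an adjusted p below 0.05. Lhx1 did not pass the filter on low counts and was not tested. Beside this, 6 of 7 red cell, 6 of 7 granulosa and 5 of 6 germ cell genes were called higher at E13.5 and 5 of 6 endothelial genes lower. All 6 liver genes were called higher (median log2 fold change 5.80), their sums being 3.46 and 3.52 CPM at E12.5 and 120.2 and 129.9 CPM at E13.5. The part of these cell types in the members' values was not tested.

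From E12.5 to E16.5, 3 members rose and 3 fell, where 20.5% of all genes tested were called higher and 17.1% lower (37.6% in either direction). Osr1, a zinc finger factor and an early marker of intermediate mesoderm, had 11.2 and 11.9 CPM at E12.5, 13.4 and 17.7 CPM at E13.5, 89.6 and 93.1 CPM at E16.5 and 3.92 and 5.08 CPM at P6w. The E16.5 libraries stood above all others, and the log2 fold change from E12.5 was 2.98 (SE 0.18, adjusted p = 1.29e-08, edgeR). Gata3, a zinc finger factor of the nephric duct, had 19.7 and 21.3 CPM at E12.5, 23.4 and 25.1 CPM at E13.5, 72.7 and 104 CPM at E16.5 and 5.55 and 6.74 CPM at P6w. It too was highest in both E16.5 libraries, by 2.10 on the log2 scale over E12.5 (SE 0.18, adjusted p = 4.23e-07, edgeR).

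Tcf21, a basic helix-loop-helix factor of stroma and gonadal interstitium, was the third member called higher at E16.5, and its E16.5 libraries differed from each other. It had 42.0 and 49.8 CPM at E12.5, 57.5 and 65.9 CPM at E13.5, 53.2 and 111 CPM at E16.5 and 9.64 and 13.8 CPM at P6w. The first E16.5 library lay inside the range of the 2 earlier stages and the second above it. The log2 fold change over E12.5 was 0.83 (adjusted p = 0.0168, edgeR), and without the second E16.5 library it was 0.21 (adjusted p = 0.343, edgeR). The call was also lost without the first E12.5 library (adjusted p = 0.114, edgeR). With DESeq2 the change was not called (adjusted p = 0.110).

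The members that fell from E12.5 to E16.5 were Pax8, Pax2 and Foxc1. Pax8, a paired box factor of the nephric lineage, had 20.4 and 26.2 CPM at E12.5, 28.8 and 35.1 CPM at E13.5, 11.6 and 13.0 CPM at E16.5 and 0.250 and 0.572 CPM at P6w. The 4 stages did not overlap, and the E16.5 level was lower than at E12.5 by a log2 fold change of -0.92 (SE 0.20, adjusted p = 0.00211, edgeR). Its relative Pax2 was scarce, with 26 and 21 counts at E12.5, 11 and 10 counts at E13.5, 8 and 0 counts at E16.5 and none at P6w. The fall at E16.5 was called by edgeR (log2 fold change -2.49, adjusted p = 0.0357) and not by DESeq2 (adjusted p = 0.0808), nor by edgeR without either E12.5 library or without the second E16.5 library. Foxc1 stayed low, at 0.433 and 0.184 CPM at E16.5 (log2 fold change from E12.5 -2.66, adjusted p = 0.00534, edgeR), a call lost without the first E12.5 library (adjusted p = 0.0780, edgeR).

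Within the L5 code, with the first E16.5 library alone set against E12.5, 4 of 8 members were called, where 37.4% of genes were. Osr1 (log2 fold change 2.95) and Gata3 (1.82) were higher, and Pax8 (-0.84) and Foxc1 (-2.24, adjusted p = 0.0494, edgeR) lower, the lone library being assumed to vary like the others. The 6 interstitial collagen and matrix genes, of which Col1a2 was the most abundant on that mean, moved beside Osr1 and Gata3, with sums of 739 and 799 CPM at E12.5, 659 and 666 CPM at E13.5, 2865 and 2571 CPM at E16.5 and 315 and 349 CPM at P6w. Of these 6, 5 were called higher at E16.5 than at E12.5. The 6 endothelial genes, of which 4 were called lower, had sums of 246 and 250 CPM at E12.5 and 146 and 164 CPM at E16.5. The 7 nephric tubule genes, with Emx2 the most abundant, had 130 and 133 CPM and then 59.1 and 76.7 CPM, with 2 of 5 tested called higher and 2 lower. The part of these cell types in the members' changes was not tested.

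**Figure D1:**
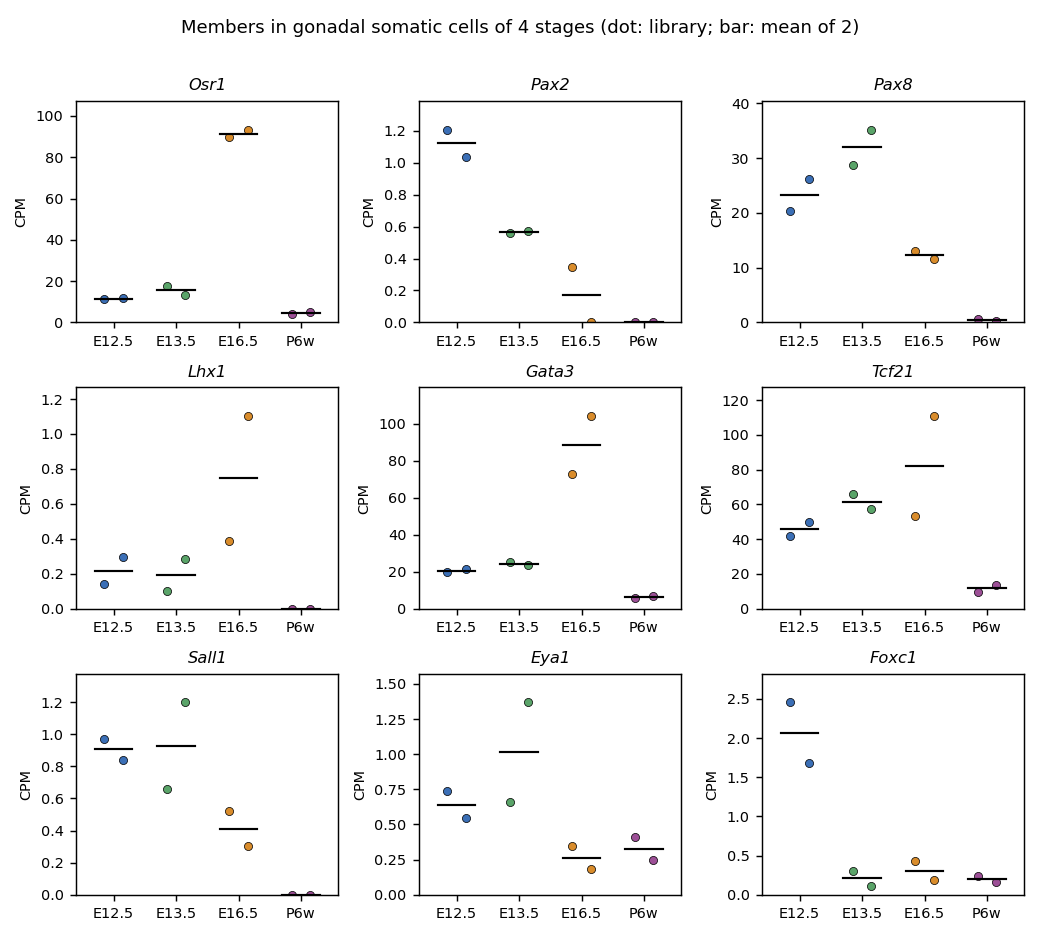
Level of each of the 9 members in CPM (vertical axes, each from 0) by stage from E12.5 to P6w (horizontal axis), with 2 libraries per stage as dots and their mean as a bar. Osr1 and Gata3 are highest in both E16.5 libraries, and Pax2, Lhx1 and Sall1 have no counts in either P6w library.

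Against E13.5, the E16.5 libraries had 2 of 8 members called higher and 2 lower, where 28.7% of all genes were higher and 25.4% lower (54.1% in either direction). Osr1 (log2 fold change 2.55) and Gata3 (1.86) were higher and Pax8 (-1.37) lower. Eya1, a transcriptional co-activator with phosphatase activity, had 13 and 24 counts at E13.5 and 8 and 3 counts at E16.5. Its call (log2 fold change -1.86, adjusted p = 0.0407, edgeR) was lost with the replicate number as a block (adjusted p = 0.0642), with DESeq2 (adjusted p = 0.0945), and without the second E13.5 library or either E16.5 library (adjusted p = 0.0938 to 0.281, edgeR).

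In the adult ovary cells no member was called higher than in any fetal stage. Lower at P6w were 7 of 8 tested members against E12.5 (27.5% of all genes lower, 52.9% called), 6 against E13.5 (31% lower, 59.7% called) and 5 against E16.5 (29.8% lower, 56.1% called). These comparisons share the P6w libraries. Without either P6w library the calls of Pax2 against E13.5 (adjusted p = 0.0760 and 0.0780, edgeR) and of Sall1 against E16.5 (0.0607 and 0.0632) were lost, leaving 5 members (45.3% and 46.8% of genes called) and 4 members (41.8% and 43.9%). Pax8 changed most among members counted in every library, with a log2 fold change from E12.5 of -5.80 (SE 0.33, adjusted p = 1.25e-09, edgeR). Tcf21 (-1.97), Gata3 (-1.74) and Osr1 (-1.36) kept a measurable level, each with both P6w libraries below all 6 fetal ones. Markers of other cell types moved beside the members. All 6 endothelial and all 7 red cell genes were called lower at P6w than at E12.5, and 5 of 6 macrophage genes higher. The endothelial sums were 246 and 250 CPM at E12.5 and 45.8 and 52.7 CPM at P6w, and the macrophage sums 49.9 and 53.1 and then 144 and 152 CPM. Of the mesothelial genes (168 and 178 CPM, then 74.6 and 88.4 CPM), 3 of 5 were called lower and 1 higher. The liver genes, 2 of 6 called higher and 1 lower, summed to 125 and 138 CPM at P6w, of which Apoa1 made up 122 and 133 CPM. The part of these cell types in the members' values was not tested.

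Pax2, Sall1 and Lhx1 had no count at P6w, so their folds are bounds, set at 3 counts over the 2 libraries. Pax2 was at least 9.08-fold lower than at E12.5 and at least 4.56-fold lower than at E13.5. Sall1, a zinc finger factor of the nephron-forming mesenchyme, had 17 and 21 counts at E12.5, 13 and 21 counts at E13.5 and 12 and 5 counts at E16.5, and was at least 7.35-fold, 7.39-fold and 3.48-fold lower at P6w than at these stages. Lhx1, a LIM homeodomain factor of the nephric duct, had 3 and 6 counts at E12.5, 2 and 5 counts at E13.5 and 9 and 18 counts at E16.5, and was at least 5.53-fold lower at P6w than at E16.5. Within the L1 code, with the second E16.5 library alone, Osr1 (log2 fold change -4.37), Pax8 (-4.79), Gata3 (-4.08) and Tcf21 (-3.24) were again lower at P6w, as were Lhx1 and Sall1 (adjusted p = 0.0498, edgeR), 6 of 9 members where 51.9% of genes were called.

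Per kilobase of exon, the members spanned a wide range at E12.5. Tcf21 had 19.5 CPM per kilobase, followed by Osr1 (5.59), Gata3 (5.16) and Pax8 (3.84), and the other 5 lay between 0.0534 (Lhx1) and 0.354 (Foxc1). Osr1 and Gata3 lay close together beside their spread (SD 0.24 and 0.29 CPM per kilobase over 2 libraries). At E16.5 Osr1 (44.2 CPM per kilobase, SD 1.19) and Tcf21 (34.9, SD 17.3) could not be ordered beyond their spread, and Gata3 had 22.2 (SD 5.55). The kit did not mark strand, so reads of a member cannot be told from those of an overlapping gene on the opposite strand. Such genes are 1700022H16Rik at Osr1, Gm10824 at Tcf21, Gm13415 at Pax8 (35182 bases shared between the gene spans), 1700039E22Rik and Gm20395 at Pax2, 4930412O13Rik and Gm13256 at Gata3 and Gm22616 at Eya1. Gata3 also overlaps 9230102O04Rik on its own strand, as Pax2 does Mir6405 and Eya1 Gm37444.

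The 32 partner genes of the nephric pathway (ligands, receptors, factors and adhesion molecules chosen with the members) changed in both directions. Of the 24 tested, 2 were called higher and 12 lower at E13.5 than at E12.5, with a median log2 fold change of -0.73 against 0.03 over all genes. The ureteric bud ligand Gdnf went from 83 counts over the E12.5 libraries to none at E13.5, at least 24.6-fold lower. Cdh6 (log2 fold change -2.36) and Robo2 (-1.79) also fell, while the kidney cadherin Cdh16 (2.28) and Cited1 (0.81) rose. At E16.5, 6 were higher and 8 lower than at E12.5, among them Cited1 (2.07), Cdh16 (1.87), Gdnf (-2.18), Emx2 (-1.53) and Robo2 (-1.40). Grem1, a BMP antagonist, was also called higher and had 1 count over the E12.5 libraries and 15 counts over those of E16.5, a ratio of 15.9 per library size (counting interval 2.45 to 670).

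At P6w, 4 partners were called higher and 15 lower than at E12.5. Grem1 had 225 and 226 CPM at P6w, against 0 and 0.0494 CPM at E12.5, and Gdnf 12.2 and 12.6 CPM against 1.43 and 2.50 CPM, while Cited1 was higher by 2.18 and Cdh6 lower (-6.06) on the log2 scale. Against E13.5, 7 were higher and 13 lower at P6w, with Robo2 (log2 fold change 1.63) the third largest rise, and against E16.5, 3 were higher and 17 lower. Wnt11, a signal of the ureteric tips, was among the largest falls in both (log2 fold change -4.65 and -5.10). The GDNF receptor Ret fell to 2 counts over both P6w libraries, from 229 at E12.5, and Cdh16 to none, from 20. From E13.5 to E16.5, 11 rose, among them Gdnf (at least 5.35-fold), Grem1 (at least 4.72-fold) and the Notch ligand Jag1 (log2 fold change 2.45), and 4 fell, among them Emx2 (-1.13), Ret (-1.11) and Wnt4 (-0.79).

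In the V580 cultures, Osr1 rose from day 4 to day 6 and stayed high. It had 4.20, 4.32 and 4.44 FPKM on day 4, 10.9, 10.9 and 11.2 on day 6, 9.46, 9.98 and 10.4 on day 8 and 9.93, 10.5 and 11.5 on day 10, against 1.95, 2.66 and 3.07 in E12.5_GC. The day 4 libraries lay below all later ones and above all E12.5_GC libraries. Osr1 was the 1 member of 5 tested that was called at 2-fold or more between days 4 and 6, on the log2(FPKM+1) scale, which understates the change of low genes (log2 fold change 1.17, SE 0.09, adjusted p = 1.36e-07, limma). Of all genes tested, 5.08% were called. It was also the 1 member called between days 4 and 10 (1.13), where 12.3% of genes were called, and on recovered reads 4 of 7 members were called there (22.4% of genes), Osr1 and Pax8 higher and Pax2 and Eya1 lower on day 10.

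Whole read numbers could be recovered from the steps of the FPKM values for 94.7% of genes (within 0.02 read), at an approximate depth of 16400000 to 28300000 fragments per library, and a count test on these reads, added after the values were seen, also reached the scarce members. It called 3 of 7 members between days 4 and 6, with 12.6% of genes called. Pax8 had 0.10, 0.101 and 0.145 FPKM on day 4, 0.579, 0.657 and 0.775 on day 6, and 1.11, 1.21 and 1.24 on day 10. No 2 of these days overlapped, and the log2 fold change on recovered reads was 2.51 from day 4 to day 6 and 3.32 to day 10 (adjusted p = 2.56e-08 and 1.98e-10, edgeR). On the log2(FPKM+1) scale the Pax8 rise to day 6 was 0.58, under the fold threshold.

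Pax2 rose and fell again within the same days. Its libraries held 33, 56 and 28 recovered reads on day 4, 69, 81 and 98 on day 6, 60, 59 and 87 on day 8 and 12, 23 and 9 on day 10. Day 6 lay above day 4 (log2 fold change on recovered reads 1.12, adjusted p = 0.00105, edgeR), and day 10 below every earlier library. The fall from day 8 to day 10 was -2.16 (adjusted p = 3.74e-05, edgeR on recovered reads). Over the same step Pax8 differed by 0.21 (SE 0.13, adjusted p = 0.215, edgeR on recovered reads), which missed the test.

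Among the other members, Gata3 (duct and trophoblast) had 5.86, 6.18 and 6.43 FPKM on day 4 and 4.20, 4.52 and 4.63 FPKM on day 10. Its differences between days 4 and 10 (-0.39, adjusted p = 0.0106, limma) and days 6 and 8 (-0.36, adjusted p = 0.0268) passed the adjusted p and missed the 2-fold minimum. Sall1 dipped on day 6 (1.75, 1.85 and 2.03 FPKM) between day 4 (2.68, 2.84 and 3.06) and day 8 (3.50, 3.94 and 3.95), without overlap. The difference between days 6 and 8 was 0.74 on the log2(FPKM+1) scale (adjusted p = 1.32e-05, limma), under the 2-fold minimum, and 1.01 on recovered reads (adjusted p = 4.77e-05, edgeR), where it was called. Foxc1 went from 3.49, 3.51 and 3.59 FPKM on day 4 to 2.01, 2.12 and 2.15 on day 6, a change of -0.55 on the log2(FPKM+1) scale (adjusted p = 0.0133, limma) that missed the fold threshold. Eya1 stayed at or below 0.145 FPKM on every day.

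Between days 6 and 8, and between days 8 and 10, limma called 0 of 5 members (2.55% and 1.29% of genes called). At an unadjusted p below 0.05, 3 and 1 of them passed, and the count test on recovered reads called 1 and 2 of 7 (7.54% and 4.9% of genes). The comparisons of days share libraries with each other.

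**Figure D2:**
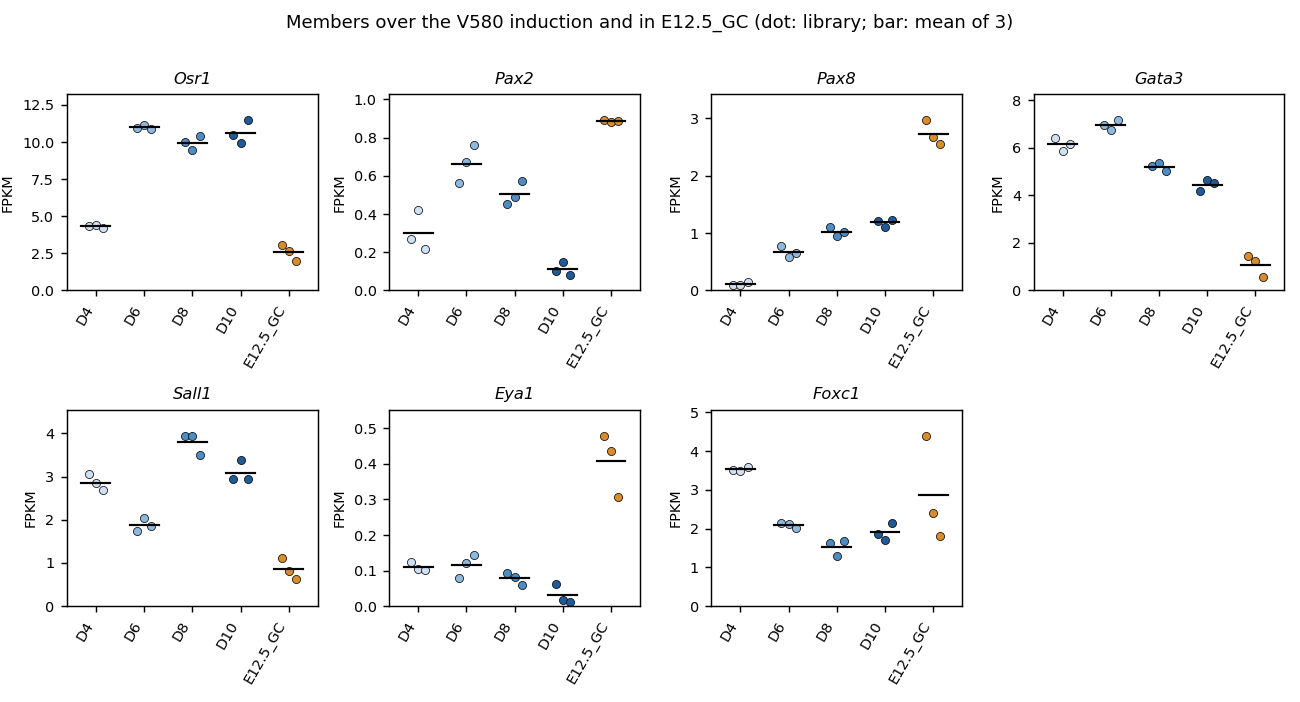
FPKM of the 7 listed members (vertical axes, each from 0) on days 4 to 10 of V580 and in E12.5_GC (horizontal axis), with a dot for each library and a bar for the mean of 3. Osr1 and Gata3 lie above E12.5_GC on every day and Pax8 below it, and Pax2 is lowest on day 10.

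Set against E12.5_GC, the day 6 cells had more Osr1 and Gata3 and less Pax8. Gata3 had 6.76, 6.96 and 7.17 FPKM on day 6 and 0.552, 1.23 and 1.45 in E12.5_GC, a difference of 1.97 on the log2(FPKM+1) scale (SE 0.12, adjusted p = 2.01e-09, limma). Osr1 differed by 1.76 (SE 0.09) and Pax8, at 2.55, 2.68 and 2.97 FPKM in E12.5_GC, by -1.16 (SE 0.06). No library of day 6 overlapped with E12.5_GC for any of the 3, which were the 3 called of 5 tested members, with 15.2% of genes called. Without the third E12.5_GC library, which had the lowest sum of FPKM, these 3 were again those called (14.8% of genes). Mean levels in E12.5_GC were 1.08 FPKM for Gata3, 2.56 for Osr1, 2.73 for Pax8 and 2.88 for Foxc1. The E12.5 libraries of the stages had 5.16, 5.59, 3.84 and 0.354 CPM per kilobase of these genes, in another unit. The order of the genes thus differed between the E12.5 preparations, and day 6 was compared with E12.5_GC only.

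On recovered reads 5 of 7 members were called between day 6 and E12.5_GC (26.2% of genes), with Sall1 higher (log2 fold change 1.10) and Eya1 lower (-1.84) on day 6 besides. Pax2 had 0.883, 0.888 and 0.892 FPKM in E12.5_GC and 0.560, 0.673 and 0.759 on day 6, without overlap, and missed the test (adjusted p = 0.0853, edgeR on recovered reads). Foxc1 overlapped, since its E12.5_GC libraries ranged from 1.82 to 4.40 FPKM. The 3 measured red cell genes summed to 1038, 1693 and 4435 FPKM in E12.5_GC and to at most 0.282 FPKM on day 6, and 3 of 4 endothelial and 5 of 6 macrophage genes were called lower on day 6. All 6 granulosa genes measured were lower (median log2 fold change -3.24), while both trophoblast genes (median 2.47), 5 of 8 extraembryonic endoderm genes (median 1.32, 1 called lower) and 3 of 5 mesothelial genes (median 2.18) were called higher. The part of these cells in the differences was not tested.

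Of the 21 partners tested in these cultures, 8 rose and none fell between days 4 and 6, led by Wnt4 (log2 fold change 3.05), Emx2 (2.56) and Cited1 (2.31), the first a signal for tubule formation and for the ovary. From day 4 to day 10, 11 rose and 2 fell (Six4, -1.34, and the stromal factor Foxd1, -1.24), with Wnt4 at 4.16, Cited1 at 3.01 and Itga8 at 2.59. Itga8 and Gfra1 were the 2 partners called between days 6 and 8. None was called between days 8 and 10 by limma. Of 6 interstitial genes 5 were called higher on day 6 than on day 4, and their sums went from 67.0 to 78.1 FPKM on day 4 to 177 to 185 on day 6 and 1338 to 1652 on day 10, while those of the pluripotency genes, 4 of 4 tested called lower, went from 213 to 240 FPKM on day 4 to 12.3 to 15.3 on day 6.

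Day 6 cells and E12.5_GC differed in 10 of the 21 partners. Cited1 (log2 fold change 3.22) and Cdh6 (2.12) were among those higher on day 6, and Cited2 (-2.19), Ret (-1.92) and Wnt4 (-1.45) lower. Wnt4 had 34.1 to 37.0 FPKM on day 6 against 82.7 to 124 in E12.5_GC.

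In the first 48 h, Sall1 was lower with AM580, with or without vitamin C. At 48 h Sall1 had 28.4 and 28.4 FPKM in Con, 26.3 and 26.5 in Vc, 3.96 and 4.32 in AM580 and 3.95 and 4.003 in V580. The libraries with AM580 lay far below those without it, and the changes against Con were -2.52 for AM580 and -2.56 for V580 on the log2(FPKM+1) scale (SE 0.05 for both, adjusted p = 1.85e-14 and 1.70e-14, limma). At 24 h the same direction was present at a smaller size, with 26.9 and 29.5 FPKM in Con, 28.0 and 29.9 in Vc, 16.04 and 16.2 in AM580 and 17.9 and 18.1 in V580. These differences (-0.77 and -0.62, adjusted p = 9.66e-08 and 4.02e-07, limma) missed the 2-fold threshold. The difference between these effects at 24 h and 48 h was itself called (treatment-by-time term, limma), for AM580 (-1.75, 1.9% of genes called) and for V580 (-1.94, 1.83% of genes called), and for Vc 0.0376% of genes and no member were called, none with an unadjusted p below 0.05.

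Gata3 was higher with AM580 at 48 h, when its level in Con had dropped. It had 5.84 and 6.07 FPKM in Con at 24 h and 0.549 and 0.721 at 48 h, a change of -2.09 on the log2(FPKM+1) scale between the control times (adjusted p = 3.26e-12, limma), a comparison added after the values were seen. At 48 h it had 0.676 and 0.694 FPKM in Vc, 2.36 and 2.63 in AM580 and 1.85 and 1.91 in V580. AM580 differed from Con by 1.10 (SE 0.07, adjusted p = 9.77e-09, limma) and V580 by 0.82 (adjusted p = 2.43e-07), under the 2-fold threshold on that scale. On recovered reads the differences were 1.99 and 1.58, both called.

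Foxc1 had 0.146 and 0.171 FPKM in Con at 48 h, 0.0886 and 0.135 in Vc, 1.19 and 1.32 in AM580 and 0.384 and 0.530 in V580. AM580 was highest, V580 next, and neither overlapped with Con or Vc. On the log2(FPKM+1) scale the differences from Con were 0.96 and 0.33, under the threshold, and on recovered reads they were 2.99 and 1.54 (adjusted p = 5.43e-10 and 5.58e-05, edgeR). Foxc1 was also the member called between V580 and AM580 at 48 h on recovered reads (log2 fold change -1.45, adjusted p = 9.07e-06, edgeR, with 1.41% of genes called). Gata3 passed the adjusted p there and missed the 2-fold minimum (-0.41, adjusted p = 0.0230, edgeR), and Sall1 did not pass (-0.06, SE 0.07).

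**Figure D3:**
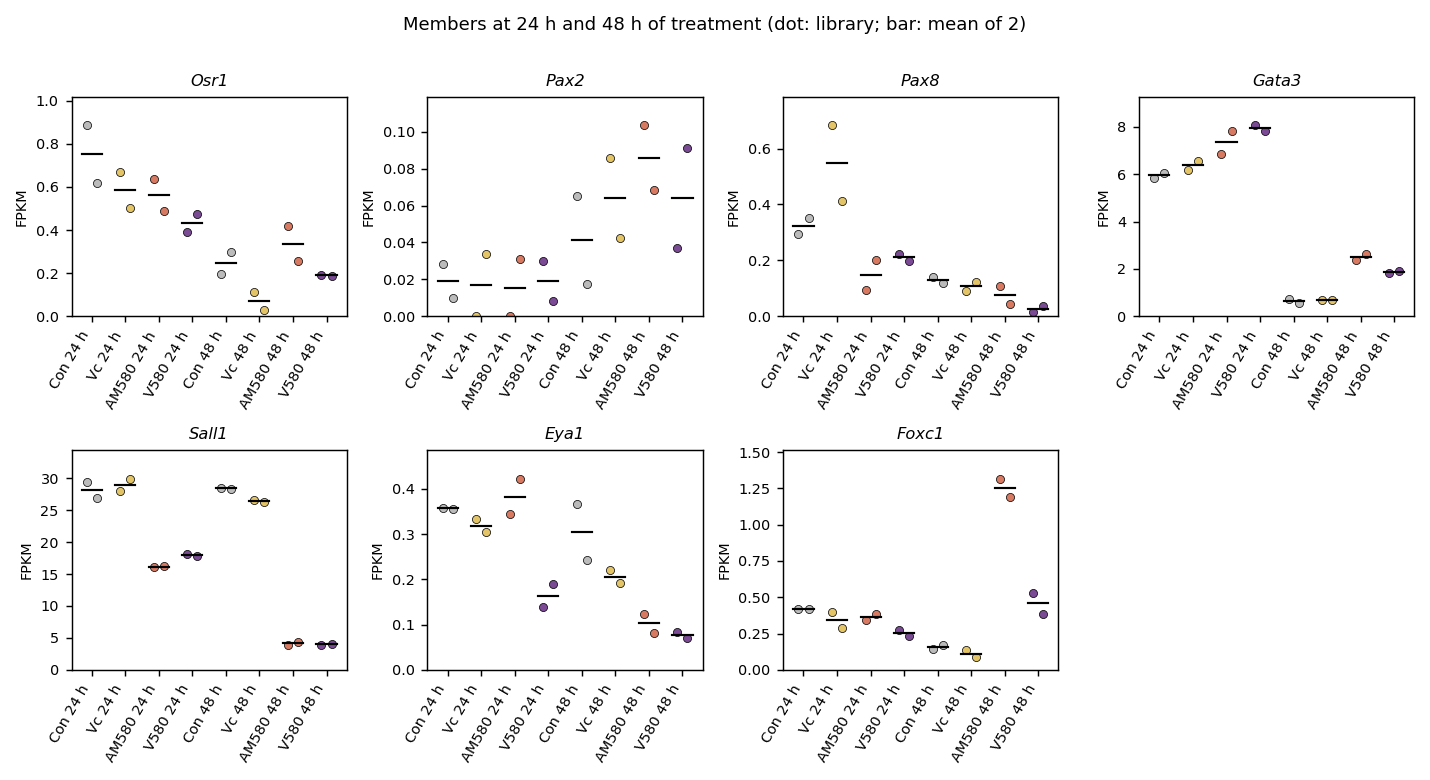
FPKM of the listed members (vertical axes, each from 0) in Con, Vc, AM580 and V580 at 24 h and 48 h (horizontal axis), with a dot for each library and a bar for the mean of 2. At 48 h Sall1 lies at about 4 FPKM in AM580 and V580 and at 26.3 to 28.4 FPKM in Vc and Con.

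Counted over the comparisons with Con, limma called 2 of 3 tested members for AM580 and 1 of 3 for V580 at 48 h, with 3.23% and 3.18% of genes called. At 24 h it called none for AM580 (0.404% of genes) or V580 (0.695%), with 2 and 3 at an unadjusted p below 0.05, and the count test on recovered reads called Pax8 for AM580 (log2 fold change -1.12, adjusted p = 0.0497, 1.65% of genes) and Eya1 for V580 (-1.10, adjusted p = 0.00343, 3.16% of genes). For Vc, both tests called none at either time (0.0846% and 0.047% of genes by limma, 0.82% and 0.787% by edgeR on recovered reads), and none had an unadjusted p below 0.05 by limma. On recovered reads Pax8 at 24 h (log2 fold change 0.77, adjusted p = 0.0907, edgeR) and Osr1 (-1.70, adjusted p = 0.0888) and Eya1 (-0.56, adjusted p = 0.180) at 48 h were below 0.05 before adjustment. Between V580 and AM580 limma called none at 24 h (0.0658% of genes) or 48 h (0.263%), with 1 and 2 at an unadjusted p below 0.05, and the count test called 1 at each time, Eya1 at 24 h (-1.20, 0.969% of genes) and Foxc1 at 48 h. Treatments of a time share their Con libraries.

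At 48 h the count test on recovered reads called 4 of 7 members for AM580 and 5 of 7 for V580 (8.96% and 8.99% of genes). Besides Sall1, Gata3 and Foxc1 these were Eya1, lower with AM580 (-1.54) and V580 (-1.96), and Pax8, lower with V580 (-2.26). Eya1 had 57 and 40 recovered reads in Con, 19 and 12 in AM580 and 13 and 10 in V580, and Pax8 17 and 15 in Con and 2 and 4 in V580. Osr1 and Pax2 were not called in any treatment, and their levels at 48 h were at most 0.419 and 0.104 FPKM. Between the control times 1 of 3 tested members was called by limma (7.72% of genes) and 4 of 7 on recovered reads (17.8%), namely Gata3, Foxc1 (-1.39), Osr1 (-1.59) and Pax8 (-1.31), all lower at 48 h.

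Of the 17 partners tested in the treatments, 3 were called higher with AM580 at 48 h, among them the cadherin Cdh6 (log2 fold change 1.03), and 1 with V580. None was called lower, and none was called at 24 h, with Vc, or between V580 and AM580. Foxc2 fell between the control times (-1.02). Extraembryonic endoderm genes moved beside the members, with sums over 9 genes of 7.37 and 7.92 FPKM in Con, 28.3 and 28.7 in AM580 and 18.2 and 19.5 in V580 at 48 h, and 6 of 9 were called higher with AM580. The 2 listed trophoblast genes, one of them Gata2, summed to 1.49 and 1.75 FPKM in Con, 6.17 and 6.56 in AM580 and 2.95 and 3.05 in V580. The sum of 6 pluripotency genes was 2237 and 2344 FPKM in Con and 2702 and 2902 in AM580, with 2 of 6 called lower. The part of such cells in the members' values was not tested.

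Over the 31 FPKM libraries of days and treatments, the genes whose log2(FPKM+1) followed each member most closely among 11819 genes were named by Pearson's r, as a description of libraries that share time points and cultures. Osr1 was followed by Wnt11, Hacd4 and Smoc2 (all at 0.98), and Pax8 by Acaa2, Glrx and Nek7 (all at 0.97). Gata3 was followed by Bcl2l1 (0.96), Gprc5a (0.94) and Fam83h (0.93), Sall1 by Kctd3 (0.97), Tor3a (0.96) and Atcay (0.96), and Foxc1, among others, by Cyp1b1 (0.95) and Cpd (0.94).

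In the 10x sample of day 6, 15315 of 15412 barcodes were kept, with a median of 9281 UMIs, and 46.4% of cells (95% exact binomial interval 45.6 to 47.2, counting error only) held a UMI of at least 1 member. The study speaks of replicates for this experiment, but the barcodes carry a common suffix and no map to replicates. The cells may therefore pool several, and they were treated as 1 sample, in which nothing was tested. Tcf21 was found in 23.7% of cells, Osr1 in 15.9%, Gata3 in 8.97%, Pax8 in 5.60%, Foxc1 in 5.59% and Sall1 in 3.09%. Pax2 (112 cells), Lhx1 (93 cells) and Eya1 (58 cells) were each found in under 1% of cells. The 8210 cells with no member had a median of 2687 UMIs and the 4818 with 1 member 12796. Thinned to 5000 UMIs, which left out 6238 shallower cells and kept 9077, the shares were 19.2% for Tcf21, 11.02% for Osr1, 5.98% for Gata3, 3.77% for Pax8, 2.90% for Foxc1 and 1.37% for Sall1. Scrublet, run to find doublets, marked 1 cell and so has not worked, and doublets may remain.

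The cells were clustered without the members, giving 12 clusters, and a cluster was named only from markers of the lists used here. Cluster 1 was mesothelial-like, cluster 3 interstitial-like, clusters 7 and 9 extraembryonic endoderm-like, cluster 8 trophoblast-like and cluster 10 neuron-like. Cluster 2 held cycling cells with mesothelial genes. Cluster 6 was led by Wfdc2, Dppa5a, Cldn3, Epcam, Stra8 and Wnt6, and its best-scoring lists were pluripotency and germ cell. Clusters 2 and 6 and clusters 0, 4, 5 and 11 were left unnamed. Cluster 0 (22.0% of cells, median 1463.5 UMIs) was led by AY036118, Gm42418 and Lars2. Cluster 4 (8.86% of cells, median 2039 UMIs) was led by AY036118 and mitochondrial genes. Both are part of the shares over all kept cells, and the quality of their cells was not tested. No cluster was named from the nephric tubule list, and Cdh16 had no UMI in any of them. The partner Cited1, called higher on day 6 in the bulk libraries, was a leading gene of the unnamed cluster 5 and of cluster 7.

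Tcf21 was most abundant in the interstitial-like cluster 3, with 127 CPM (UMIs summed over the cells of a cluster) and a UMI in 64.5% of 1477 cells, and lowest in clusters 6, 8 and 7 (8.24, 8.30 and 8.97 CPM). The mesothelial-like cluster 1 had 62.2 CPM (35.8% of 3082 cells) and the cycling cluster 2 had 64.0 CPM (42.5% of 2023 cells). Clusters 1, 2 and 3 held 28.3%, 26.9% and 33.5% of all Tcf21 UMIs. In the extraembryonic endoderm-like cluster 7, which is deeper (median 23201 UMIs against 14050 in cluster 3), 12.3% of cells held a Tcf21 UMI. Osr1 had 63.5 CPM in cluster 6, 32.4 in the mesothelial-like cluster 1 and 27.2 in cluster 3, against 4.77 to 6.81 in clusters 7, 8, 9 and 11. Clusters 0, 2 and 4 had levels like those of clusters 1 and 3 (33.3, 26.9 and 25.3 CPM), and cluster 5 had 11.1 CPM. An Osr1 UMI was found in 0 of 66 cells of the neuron-like cluster 10, which allows a share of cells with a UMI of up to 4.55% (3 counts of 66 cells) and does not limit the share that express the gene. The 2 genes shared 846 cells, 34.8% of the Osr1 cells and 23.3% of the Tcf21 cells. After thinning to 5000 UMIs, Tcf21 was found in 18.7% of Osr1 cells and 19.3% of the other cells.

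Gata3 was most abundant outside the mesothelial-like cluster. It had 106 CPM in the trophoblast-like cluster 8 (33.9% of 661 cells), 72.2 in cluster 11 (13 UMIs in 4 of 25 cells) and 59.0 in cluster 6 (45.6% of 1042 cells), against 8.08 in cluster 1 and 2.70 in cluster 7 (5.64% of cells). Cluster 8 had a median of 2980 UMIs and cluster 7 of 23201. Clusters 6 and 8 held 40.5% and 25.2% of all Gata3 UMIs.

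Sall1 was highest in the extraembryonic endoderm-like clusters 9 (18.2 CPM, from 16 UMIs) and 7 (12.2 CPM, 22.8% of cells) and in the trophoblast-like cluster 8 (12.6), against 1.44 in the mesothelial-like cluster 1 (1.72% of cells, median 12157 UMIs) and 1.62 in cluster 3. Cluster 7 alone held 47.6% of the Sall1 UMIs. Pax8 was distributed otherwise, with 13.8 CPM in cluster 1 (11.7% of cells) and 11.8 in cluster 2, which held 43.5% and 34.4% of its UMIs, and 1.96 in the deeper cluster 7 (4.20% of cells). Foxc1 had 7.02 to 8.18 CPM in clusters 1, 2, 3, 4 and 6 and 1.39 in cluster 7.

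Lhx1 was found mostly in the 66 neuron-like cells of cluster 10, which held 296 of its 375 UMIs (78.9%). It was found in 32 of these cells (48.5%, interval 36.0 to 61.1), at 464 CPM, and no other cluster exceeded 1.91. In cluster 7, with a median of 23201 UMIs against 9750 in cluster 10, 1 of 904 cells held an Lhx1 UMI. Pax2 (61.1 CPM), Pax8 (47.0) and Eya1 (17.2) were also higher in cluster 10 than in any other cluster. These cells carried the neuronal genes Nefl (1057 CPM), Stmn2 (843) and Tubb3 (834) and the somite and neuron factor Uncx (212), and of the nephric genes Ret (54.9) and its co-receptor Gfra1 (73.7), neither above 1.28 CPM elsewhere. Wt1 had 116 CPM there and 310 in cluster 1. Cdh16, Wnt9b, Six2, Hoxa11 and Hoxd11 had no UMI there.

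**Figure D4:**
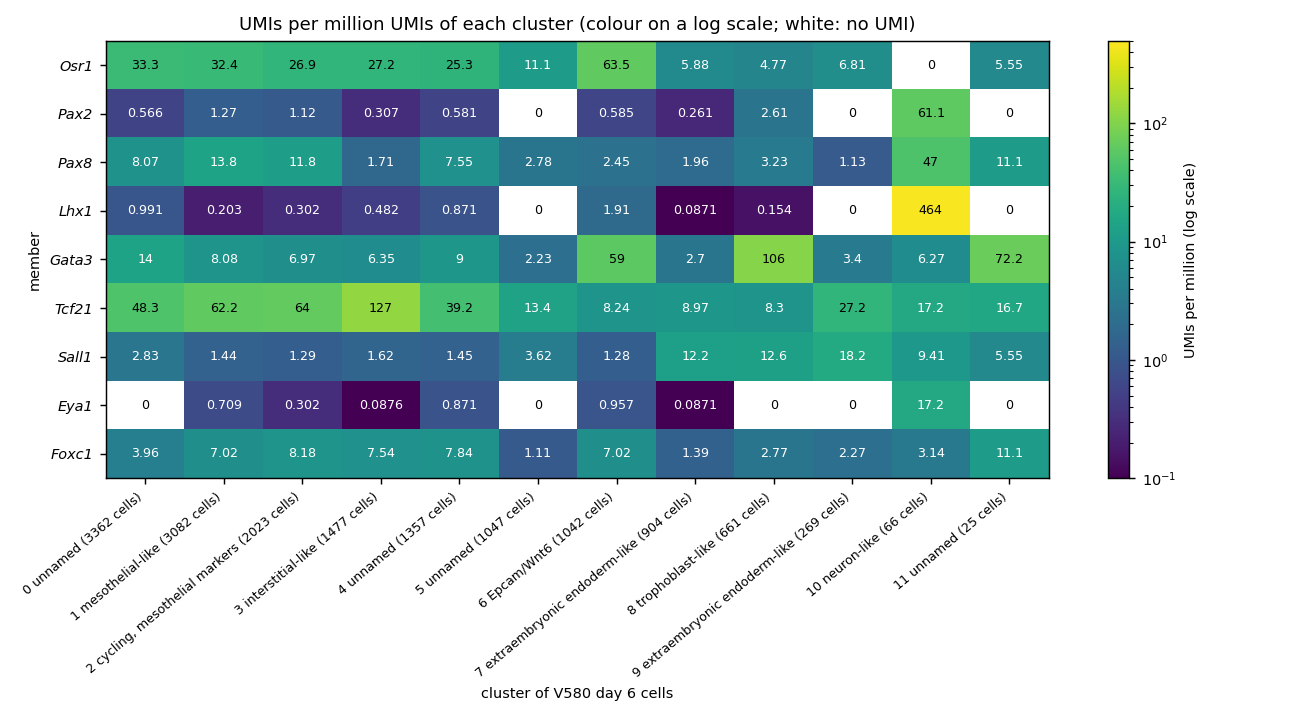
CPM of each of the 9 members (vertical axis), from UMIs summed in each of the 12 clusters of day 6 cells (horizontal axis, with cluster names and cell numbers), as colours on a log scale, white where there was no UMI. Lhx1 is highest in the neuron-like cluster 10 at 464, Gata3 in the trophoblast-like cluster 8 at 106 and Tcf21 in the interstitial-like cluster 3 at 127.

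Pax2 and Pax8 were found together in part of the cells with Pax2. Of 112 Pax2 cells, 33 also held Pax8 (29.5%), which were 3.85% of the 857 Pax8 cells, while 5.42% of the cells without Pax2 held Pax8. At 5000 UMIs per cell, the share was 21.2% of 52 Pax2 cells against 3.67% of the others. Pax2 and Lhx1 shared 13 cells, 11.6% of the Pax2 cells and 14.0% of the Lhx1 cells. Gata3 too was found in 33 of the Pax2 cells (29.5%), against 8.82% of the cells without Pax2. At 5000 UMIs per cell these shares were 11.5% and 5.95%. All these shares pool unlike clusters, and cluster 10 alone held Pax2 in 13 and Pax8 in 12 of its 66 cells. The 3 cells with 5 members had a median of 46411 UMIs, and the 1 cell with 6 had 179817.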

How the data were processed

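For the stages, the authors aligned reads to mm10 with Hisat2 and made raw counts per gene with featureCounts, and the deposited counts were used unchanged. The FPKM values of days and treatments were used as deposited by the authors, and RSEM is among the tools in the submitters' processing notes, which give no tool a role there. UMI counts of day 6 came from the authors' Cell Ranger run. Of the tables' columns of values, 10 were not used.

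Counts were filtered (filterByExpr), TMM-scaled and tested with edgeR 4.0.16 (quasi-likelihood, 1 fit over 8 libraries), with Benjamini-Hochberg adjusted p below 0.05. The study used DESeq2, an alternative here (1.42.0). FPKM were tested with limma 3.58.1 (trend) on log2(FPKM+1), over 15 libraries of the days and 16 of the treatments, in genes of at least 1 FPKM in 3 (days) or 2 (treatments) libraries, at an adjusted p below 0.05 and at least 2-fold. Whole reads were recovered from FPKM steps and tested with edgeR, an alternative added after the data were seen. Cells were kept from 200 genes upwards, with mitochondrial counts up to 40%, and clustered with scanpy 1.11.5 and leidenalg 0.10.2 without the members. All members, the 3 largest called rises and falls among the partners and the 3 genes most like each member were named, except a few that are not reported here. Gene positions and lengths came from GENCODE (GRCm38) and promoters from RefSeq. The members and lists were chosen with earlier results of these data known.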

Additional observations from a re-analysis of the deposited data

Results flagged for a closer look

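The effects of AM580 and V580 against Con of the same time differed between 24 h and 48 h for 2 of 3 members tested (Sall1 and Foxc1 with AM580, Sall1 with V580), by a treatment-by-time term fitted across 10644 genes (limma with Benjamini-Hochberg adjustment), which called 1.9% of genes for AM580 and 1.83% for V580. For Foxc1, which codes for a forkhead factor, the AM580 effect was larger at 48 h by 1.02 on the log2(FPKM+1) scale (SE 0.10, adjusted p = 2.42e-06), and both AM580 libraries of 48 h lay above both Con libraries, while at 24 h both lay below them. For Sall1 the AM580 effect changed by -1.75 (SE 0.07, adjusted p = 3.81e-10) and the V580 effect by -1.94 (SE 0.07, adjusted p = 8.39e-11), and both libraries of either treatment lay below Con at both times. The corresponding changes of Gata3 (0.83 for AM580 and 0.46 for V580) and of Foxc1 with V580 (0.51) were under the 2-fold threshold.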

How the results depend on the processing

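Of 1036 values of single members under an alternative, 949 kept their side of the threshold, 48 passed it newly, 21 no longer passed and 18 moved. Changes that were not called could reverse. Tcf21 in E16.5 against E13.5 went from a log2 fold change of 0.41 to -0.21 without the second E16.5 library. Foxc1 in P6w against E16.5 went from -0.62 to 0.16 without the first E16.5 library. Few counts stand behind Pax2, Lhx1, Eya1, Sall1 and Foxc1 in the stages, and members missed by limma were in part called on recovered reads. Within E13.5 against E12.5, 2 members were called with no filter on low counts (36.5% of genes) or with a gene length term (33.6%) and 3 with only the 2 stages fitted (57.8%), against 1 (45.9%). Leaving out each replicate gave 1 to 2 there (31.2% to 35.2% of genes) and 3 to 6 for E16.5 against E12.5 (22.4% to 38.8%), where Tcf21 was lost without the second E16.5 or the first E12.5 library (adjusted p = 0.343 and 0.114, edgeR), Pax2 without the second E16.5 or either E12.5 library (0.199, 0.111 and 0.157), and Foxc1 without the first E12.5 library (0.0780). Pax2 against E13.5 and Sall1 against E16.5 lost their P6w call without either P6w library (0.0760 to 0.0780 and 0.0607 to 0.0632).

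With a pseudocount of 0.1, no fold threshold or recovered reads, in that order, the members called were 2, 4 and 3 for day 6 against 4 (9.16%, 44.9% and 12.6% of genes), 2, 4 and 4 for day 10 against 4 (18.1%, 64.5% and 22.4%), 4, 4 and 5 for day 6 against E12.5_GC (21.6%, 67% and 26.2%), 3, 3 and 4 for AM580 at 48 h (6.24%, 57% and 8.96%), 3, 3 and 5 for V580 at 48 h (6.29%, 57.1% and 8.99%), 1, 2 and 1 for V580 against AM580 at 48 h (0.78%, 19.2% and 1.41%), and 2, 2 and 4 between the control times (13.2%, 66% and 17.8%). With no fold threshold or recovered reads they were 3 and 1 for day 8 against 6 (41.1% and 7.54%), 2 and 1 for AM580 at 24 h (14.8% and 1.65%) and 2 and 1 for V580 at 24 h (29% and 3.16%). On recovered reads they were 2 for day 10 against 8 (4.9%) and 1 for V580 against AM580 at 24 h (0.969%). These counts are of 5 members tested by limma in the days, 3 in the treatments and 7 on recovered reads. At most 20% mitochondrial counts gave 47.5% of cells with a member.

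Over all genes, a 2-fold minimum left 2752 to 5845 genes called in the stages (0.370 to 0.597 of the count without it), and E16.5 against E12.5 had 3899 and 3814 genes without the second and first E12.5 library. No fold threshold gave 3969 to 7718 genes in the days and 1324 to 7028 in the treatments, recovered reads 611 to 3266 and 95 to 2153, and a pseudocount of 0.1 346 to 2484 and 41 to 1410. The cause of these changes was not tested, beyond the fold each setting allows.

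Replicate numbers are shared between groups, but same-numbered libraries correlated over 0.1 in 1 of 6 pairs of stages, 9 of 30 pairs of libraries of the days and 7 of 28 pairs of treatment groups (with 2 libraries a group both numbers give the same correlation), so the numbers were not taken to pair the samples. A replicate block called 3 members, not 4, in E16.5 against E13.5, where Eya1 was lost, and changed no other count of members.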

Other observations

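The chi-square per degree of freedom between the counts of the 2 libraries of a stage was 35.7 at E16.5, whose libraries carry the codes L5 and L1, and 5.80 to 6.66 at the 3 other stages, whose libraries share a code. Of the E16.5 libraries, the second held 111 CPM of Tcf21 and 1.10 CPM of Lhx1, and the first 53.2 and 0.389 CPM.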
